A study of Mus musculus with 6 samples.

Results

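The response of the mouse heart to infarction was followed across all genes by comparing 2 libraries of infarcted tissue from wild-type mice (WT MI) with 2 libraries from wild-type mice after a sham operation (WT sham), 4 of the 6 RNA-seq libraries of the series. In MI mice the left anterior descending coronary artery was tied off, and in sham mice the same operation was done without tying the artery. The mice of both groups were male, 12 weeks old by the labels and WT, which the methods describe as littermates of knockout mice or C57BL/6 mice, and all strains had a C57BL/6 background. Heart tissue was taken below the ligature at day 3, so a sample can hold infarcted and surviving muscle together, and neither group received another agent. The remaining 2 libraries, labelled Card9 KO MI, entered the fit for the estimate of the spread, and no test compared them. The targeted gene Card9 had FPKM values of 9.85 and 6.94 in them, higher than in either WT MI library, so these 2 libraries are named by their label. The sources do not say whether a library stands for 1 mouse or for a pool, and p-values measure the spread between these samples, which may be technical.

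A blocked coronary artery kills heart muscle within hours, and the dead muscle is replaced by scar. Neutrophils enter the tissue first, followed by monocytes that become macrophages and clear dead cells, and fibroblasts then turn into matrix-producing cells. Heart muscle lives mainly on oxidation of fatty acids in its many mitochondria, and day 3 in the mouse falls in the inflammatory phase, when proliferation of stromal cells and matrix production set in.

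Levels are given as FPKM, the number of fragments of a gene scaled to its length and to the depth of the library, with 0 for a gene that a library does not list. Between 14935 and 14985 genes were listed in a sham library and between 15572 and 15627 in an infarct library. Read counts were not analysed here, and the depth estimated from the steps between low values was about 3167682 and 3016207 fragments in the sham libraries and 4012843 and 3923562 in the infarct libraries. At such depths 3 fragments on a 2 kb transcript correspond to an FPKM between 0.374 and 0.497, with counting error only, and values near it carry little precision. Replicates correlated across genes with a Pearson's r of 0.980 for sham and 0.981 for infarct, where genes are not independent replicates.

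The label heart was checked against marker genes of ventricular muscle, and the 11 markers of ventricular cardiomyocytes were all listed in every WT library, summing to an FPKM of 52494 and 53357 in the sham libraries and of 33352 and 33955 in the infarct libraries. Of the 4 atrial markers 2 were listed at all, with a summed FPKM of 1.28 and 0.58 in the sham libraries and of 0.57 and 2.06 in the infarct libraries, and the atrial light chain Myl7 was at 0.55 and 0.58 against 0 and 0. By these markers the muscle in both groups was ventricular.

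Below, values of a gene are FPKM of replicate 1 and then replicate 2 of a group, folds are ratios of group means of FPKM, and log2 fold changes are differences of log2(FPKM + 1) with their standard error, with 2 libraries in each group. The added 1 makes the log2 fold change of a low gene smaller than its fold. A gene was tested if at least 2 of the 6 libraries had it at an FPKM of 1 or higher. A gene near 0 in both sham libraries thus passed only through infarct libraries, and a list of such genes could hardly show losses. Genes given below with an FPKM under 1 in both sham libraries are of this kind, and the counts of their lists were in part set by the filter. A gene rose or fell where limma's moderated test with Benjamini-Hochberg adjustment over all tested genes gave an adjusted p below 0.05. Unless stated otherwise, a gene said to have risen or fallen kept that call under 4 other scalings of the libraries and with any 1 library left out. Of 13120 tested genes, 3637 (27.7%) rose in WT MI, 1232 (9.39%) fell and 8251 were not called, so 74.7% of all calls were gains. This split depends on the scaling: gains made up 51.1% of the calls with upper-quartile scaling, 48.6% with quantile normalization, 55.0% with median-ratio scaling and 61.1% when the 100 most abundant genes were left out of the scaling. The middle log2 fold change over the tested genes, 0.19 in the values as deposited, was then -0.03, -0.07, 0.003 and 0.06. Of the calls, 2181 gains and 1220 losses held under every scaling.

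In the values as deposited, whose middle log2 fold change was 0.19, gains reached further than losses. The counts that follow are for these values only, and the added 1 limits how far a low gene can fall. A log2 fold change of at least 1 was found for 1529 of the genes that rose, and one of at least 3 for 80, whereas 178 of the genes that fell reached -1 and 4 reached -3. The share of genes that fell differed with their level. Of 6563 tested genes with a mean of 1 to 10 FPKM over the 4 libraries 4.33% fell and 25.3% rose, of 5180 genes with a mean of 10 to 100 FPKM 12.7% fell and 31.1% rose, and of 691 genes above that 40.2% fell and 35% rose. The last class held 278 of the losses and the middle class 658. Genes that fell took 45.8% and 47.1% of all FPKM in the sham libraries and 28.2% and 28.4% in the infarct libraries. Genes that rose took 19.1% and 17.9% in the former and 36.6% and 36.8% in the latter. These shares describe the values that gave the calls and support nothing further.

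**Figure D1:**
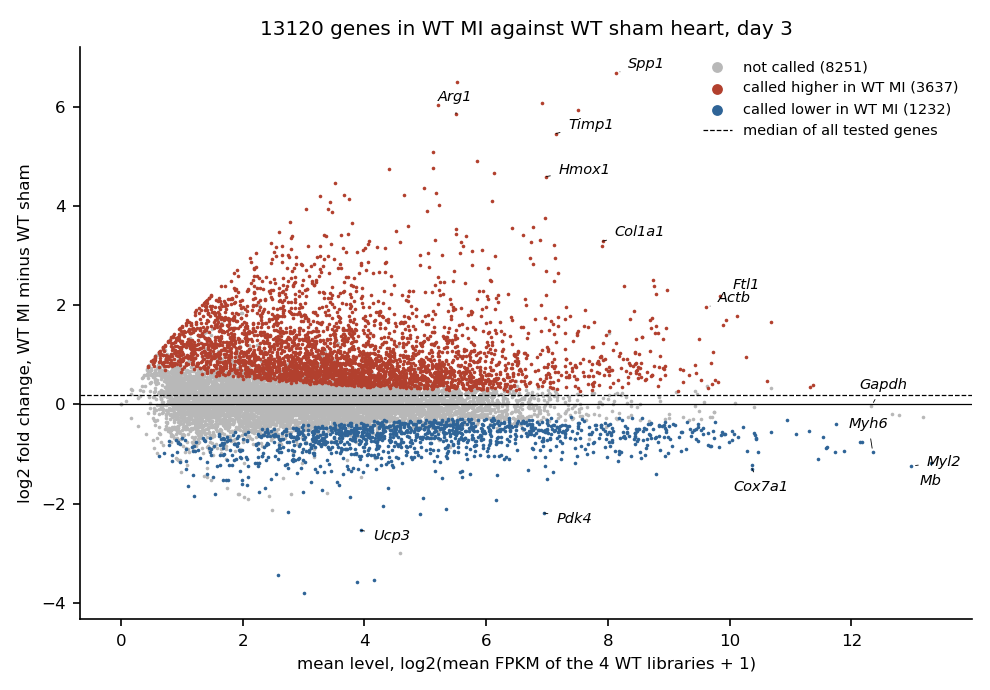
Log2 fold change of WT MI minus WT sham (vertical axis, log2(FPKM + 1)) against the mean level of the 4 WT libraries (horizontal axis, log2 scale) for all tested genes, with genes called higher in red, lower in blue and not called in grey. Gains reach a log2 fold change of 6.68 (Spp1) and the labelled losses at high levels include Mb (-1.18) and Myl2 (-1.24), while the dashed line marks the median of all genes at 0.19, which moved to between -0.07 and 0.06 under other scalings.

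Muscle proteins made up the largest losses in FPKM. Myoglobin (Mb), the oxygen store of muscle, was at 14338.45 and 13966.04 in WT sham and at 5896.39 and 6635.41 in WT MI. The groups lay far apart, and Mb fell to 44.3% of its sham mean (log2 fold change -1.18 ± 0.12, limma adjusted p = 0.0003). Myl2, the regulatory light chain of ventricular myosin, was at 11441.82 and 11400.61 against 4836.39 and 4805.96 and fell to 42.2% (-1.24 ± 0.11, adjusted p = 0.000194). Myh6, the adult myosin heavy chain, was at 6475.18 and 7384.05 in WT sham and at 3454.09 and 3611.37 in WT MI and fell to 51.0% (-0.97 ± 0.12). In tissue of many cell types a loss like this can mean fewer cardiomyocytes or less RNA per cardiomyocyte, and these cannot be told apart here.

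Of 11 tested ventricular markers, 8 fell and none rose, with a median log2 fold change of -0.54 beside 0.19 for all genes. Without WT sham replicate 2, WT MI replicate 1 or WT MI replicate 2 the count was 5. In the larger list of 24 sarcomere and Z-disc genes, 13 fell and 2 rose (median -0.43), the latter being Xirp2 and Pdlim5, whose calls were lost without WT sham replicate 2 or WT MI replicate 1 and with upper-quartile and median-ratio scaling, and that of Xirp2 also without WT MI replicate 2 and under the other two scalings. The number that fell was 8 without WT MI replicate 1 and 21 with upper-quartile scaling. Myl3, the essential light chain, fell to 51.1%, Tnni3, the inhibitory troponin, to 52.2%, and the giant spring protein titin (Ttn) to 59.4%. Not every abundant sarcomere gene was called. Cardiac actin (Actc1) was at 10230.01 and 9931.06 in WT sham and at 7909.54 and 8909.94 in WT MI (-0.26 ± 0.13, adjusted p = 0.161), and its direction depended on the scaling, with a call as lower after upper-quartile (-0.51) and median-ratio scaling (-0.48) and as higher after quantile normalization (0.49). In the values as deposited it was also called lower when both Card9 KO MI libraries (adjusted p = 0.0405) or either of them (0.0404 and 0.041) were left out of the fit. Tropomyosin (Tpm1, -0.21 ± 0.10, adjusted p = 0.146) and cardiac troponin T (Tnnt2, -0.20 ± 0.11, adjusted p = 0.171) were not called either, while both of their infarct libraries were below both sham libraries. Such an order was found for 2897 of all 13120 tested genes.

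Genes of calcium cycling and excitation fell in part. Atp2a2, the pump that returns calcium to the sarcoplasmic reticulum, was at 3669.55 and 3979.05 in WT sham and at 1636.71 and 1919.4 in WT MI, 46.5% of its sham mean (-1.11 ± 0.14, adjusted p = 0.000718). The potassium channel genes Kcnj2, Kcnj11 and Kcnd2 fell to 56.2%, 59.2% and 45.8%. Of 22 genes of calcium handling and ion channels 12 fell and 3 rose (median -0.47), but 5 losses were left when WT sham replicate 2 or WT MI replicate 1 was dropped and 6 when WT MI replicate 2 was. The gains of the exchanger gene Slc8a1 and the channel gene Kcnq1 were each lost under 3 other scalings and without WT sham replicate 1 or WT MI replicate 1, and in these cases none of the 22 genes was called higher. Pln, which restrains the pump, was at 2897.58 and 3088.7 against 2026.74 and 2083.81 (-0.54 ± 0.11, adjusted p = 0.00823), and its call was lost without WT MI replicate 1 (adjusted p = 0.072), WT MI replicate 2 (0.0554) or WT sham replicate 2 (0.0645) and under 1 other scaling. Among adrenergic genes, Adra1a, an alpha-1 adrenoceptor, fell to 36.2% and the phosphodiesterase Pde3a to 54.1%.

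Of 4 tested genes of the creatine kinase shuttle, which moves phosphate energy from mitochondria to the contractile filaments, 2 fell and 1 rose. Ckm, its muscle enzyme, was at 1833.6 and 1865.44 in WT sham and at 776.07 and 808.08 in WT MI, 42.8% of the sham mean (-1.22 ± 0.09, adjusted p = 8.31e-05). Its mitochondrial partner Ckmt2 fell to 52.3%. The gene that rose was Ckb, the brain-type enzyme, at 30.8 and 32.58 against 42.78 and 40.36 (0.38 ± 0.11, adjusted p = 0.0327), and its call was lost under every other scaling and without any 1 WT library.

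Most genes of mitochondrial energy supply fell. Of 62 tested genes of the respiratory chain and ATP synthase 57 fell and 1 rose (median -0.57), of 31 genes of fatty acid uptake and oxidation 25 fell and none rose (median -0.71), and of 23 genes of the TCA cycle and pyruvate entry 21 fell and none rose (median -0.58). No scaling and no left-out library moved these counts of losses by over 1.5 times. The shares that fell were 91.9%, 80.6% and 91.3%, beside 9.39% of all tested genes. Of the 691 tested genes with a mean above 100 FPKM, 40.2% fell. Of all FPKM, the respiratory chain list took 9.35% and 9.78% in the sham libraries and 6.37% and 6.30% in the infarct libraries.

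Cox7a1, the muscle form of a cytochrome c oxidase subunit, was at 1792.43 and 1960.49 in WT sham and at 738.9 and 788.57 in WT MI (40.7%, log2 fold change -1.30 ± 0.13, adjusted p = 0.000296). Ndufs6, a subunit of complex I, fell to 52.0%, Cox5b to 68.1%, and Atp5b, the catalytic subunit of ATP synthase, to 66.0%. Within the TCA cycle, Idh2 fell to 53.8% and Mdh2 to 69.1%. The gene that rose against this direction was Cox6a1, the liver-type form of subunit VIa. It was at 183.75 and 163.64 in WT sham and at 265.87 and 282.97 in WT MI (1.58-fold, 0.66 ± 0.09, adjusted p = 0.00148). Its muscle counterpart Cox6a2 was at 3964.17 and 4033.16 against 2150.51 and 2173.85 and fell to 54.1%, a call that 3 of the 4 other scalings kept.

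Among the fatty acid genes, Acadm, the dehydrogenase for medium-chain acids, was at 648.09 and 708.99 in WT sham and at 344.68 and 336.72 in WT MI (50.2%, -0.99 ± 0.12, adjusted p = 0.000589). Hadhb, part of the trifunctional protein, fell to 55.4% and the lipoprotein lipase gene Lpl to 62.5%. Ucp3, a mitochondrial carrier of muscle, was at 20.09 and 29.82 in WT sham and at 2.01 and 5.39 in WT MI, 14.8% of the sham mean (-2.54 ± 0.34, adjusted p = 0.00109). Pdk4, the kinase that shuts off pyruvate dehydrogenase, was at 162.41 and 235.28 against 26.42 and 66.6 (23.4%, -2.19 ± 0.40, adjusted p = 0.00441). Mlycd, which removes the malonyl-CoA that blocks fatty acid import, fell to 38.4%, and Oxct1, needed to burn ketone bodies, to 47.4%. Of 12 regulators of metabolism 6 fell and 1 rose, and the losses held under every scaling for Ppara (50.3%), Rxrg (47.7%), Perm1 (47.3%) and Ppargc1a (59.2%), which encode nuclear receptors and coactivators of these genes. The gain, of Nrf1, was lost with any 1 library left out.

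Genes of glycolysis moved both ways, 10 of 24 higher and 7 lower (median 0.20). These shares were 41.7% and 29.2%, beside 27.7% higher and 9.39% lower over all tested genes. Several of these enzymes exist as a form typical of muscle and a form used by many tissues. Lactate dehydrogenase instead has a heart form, Ldhb, and a skeletal muscle form, Ldha. Such pairs were put together after their values were seen and are given as a description. Eno1, the enolase of most tissues, was at 104.7 and 99.64 in WT sham and at 325.04 and 279.53 in WT MI (2.96-fold, 1.55 ± 0.10, adjusted p = 5.78e-05), and the muscle enolase Eno3 was at 633.62 and 683.45 against 319.24 and 320.8 (48.6%, -1.04 ± 0.10, adjusted p = 0.000284). The share of Eno1 in the sum of both was 14.2% and 12.7% in WT sham and 50.5% and 46.6% in WT MI. For Slc2a1 and the insulin-regulated glucose transporter Slc2a4 the share of Slc2a1 was 3.36% and 3.77% against 22.0% and 15.4%. The share of Pfkp beside Pfkm was 5.83% and 4.93% against 21.8% and 16.9%, that of Pgam1 beside Pgam2 8.23% and 7.91% against 29.5% and 24.3%, and that of Ldha beside Ldhb 22.5% and 22.0% against 45.6% and 42.2%. Infarct and sham libraries did not overlap in any of these shares. With 2 libraries against 2 this is common, since of 13120 tested genes 6334 were higher and 2897 lower without overlap. Hk3, a hexokinase of white blood cells, was at 0.83 and 0.23 in WT sham and at 7.22 and 8.65 in WT MI, and Slc16a3, which exports lactate, rose from 2.11 and 0.55 to 27.1 and 19.24. Slc2a4 lost its call without WT MI replicate 1 (adjusted p = 0.0862) or WT sham replicate 2 (0.0742).

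**Figure D2:**
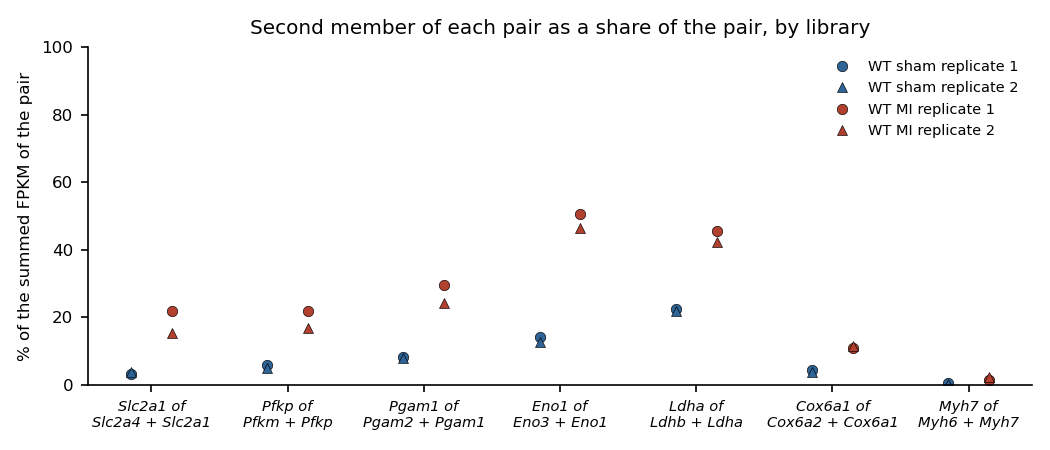
Share of the second gene in the summed FPKM of 7 gene pairs (vertical axis, %) in each of the 4 WT libraries, with sham in blue and infarct in red. Eno1 goes from 14.2% and 12.7% in WT sham to 50.5% and 46.6% in WT MI, and Myh7 beside Myh6 reaches 2.37% at most.

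Genes that mark stress of heart muscle rose from levels that differed widely between the sham libraries. Ankrd1, a stretch-responsive muscle protein, was at 1188.09 and 506.56 in WT sham and at 2411.13 and 2489.58 in WT MI (2.89-fold, 1.66 ± 0.33, adjusted p = 0.00641). Nppa, the atrial natriuretic peptide, was at 325.62 and 78.2 against 757.55 and 838.11 (2.31 ± 0.53, adjusted p = 0.0118), and Nppb, the B-type peptide, at 635.14 and 254.62 against 1113.95 and 893.82 (1.31 ± 0.36, adjusted p = 0.0231). For all 6 genes of this list WT sham replicate 1 was above replicate 2, with a median log2 difference of 1.27. The list had 5 genes higher and none lower, and 3 higher without WT sham replicate 2 or under 3 of the other scalings and 2 without either WT MI library. Nppa lost its call without WT MI replicate 1 (adjusted p = 0.0608) or replicate 2 (0.0676), and Nppb likewise (0.13 and 0.0674). The fetal myosin Myh7 was at 43.98 and 23.95 in WT sham and at 54.75 and 87.68 in WT MI (1.07 ± 0.33, adjusted p = 0.0391), a call that no other scaling kept and that was lost without WT MI replicate 2 (adjusted p = 0.218) or WT sham replicate 2 (0.206). Skeletal actin (Acta1) was not called, at 1312.46 and 318.72 against 547.23 and 502.94 (-0.30 ± 0.53, adjusted p = 0.693), and without WT sham replicate 1 it was called higher instead (log2 fold change 0.72, adjusted p = 0.0198) and without WT sham replicate 2 lower (-1.32).

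Markers of neutrophils and monocytes rose from near the detection limit. For neutrophils 12 of 13 tested markers rose and none fell (median log2 fold change 2.15). The FPKM of the listed markers summed to 10.51 and 6.92 in the sham libraries and to 258.87 and 114.01 in the infarct libraries. Of 17 markers chosen, 13 passed the filter. Trem1, Cd177, Stfa2l1 and Fpr1 were at 0 in both sham libraries, and Mmp8, Il1r2, Fpr2 and Retnlg were below an FPKM of 1. These markers passed only through infarct libraries, so the count was in part set by the filter. S100a9, a calcium-binding protein packed into neutrophils, was at 2.06 and 0.72 in WT sham and at 94.04 and 39.24 in WT MI (47.9-fold, 4.75 ± 0.42, adjusted p = 0.00018). Its partner S100a8 was at 1.75 and 0.91 against 68.91 and 25.26, and Csf3r, the receptor of the neutrophil growth factor, at 1.54 and 1.31 against 28.77 and 14.47. In these 3 genes WT MI replicate 1 was the higher one, and 11 of the 13 markers were higher in replicate 1 (median log2 difference 0.72).

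For inflammatory monocytes all 6 markers rose (median 3.08). Each was below an FPKM of 1 in both sham libraries and passed the filter only through infarct libraries, so this count is no support of its own. Their receptor for the chemokine CCL2, Ccr2, was at 0.85 and 0.91 in WT sham and at 14.08 and 18.67 in WT MI (18.6-fold, 3.20 ± 0.21, adjusted p = 5.84e-05). Chil3, a secreted lectin of activated monocytes and macrophages, was at 0.2 and 0 against 86.47 and 57.22 (6.03 ± 0.21, adjusted p = 5.76e-06), and Ly6c2 at 0.46 and 0.59 against 9.47 and 12.6. All 12 macrophage markers rose as well (median 1.73), 11 of them under every scaling. Their FPKM summed to 421.13 and 359.88 in the sham libraries and to 1435.2 and 1846.6 in the infarct libraries. The part of these incoming cells in the losses of muscle genes was not tested. Lyz2, the lysozyme of myeloid cells, was at 151.76 and 123.51 against 617.29 and 830.24 (5.26-fold, 2.38 ± 0.20), and Cd68 at 12.46 and 19 against 145.19 and 207.14 (11.2-fold).

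Of 6 genes that mark macrophages living in the healthy heart 3 rose and none fell (median 0.65), and 1 rose without WT sham replicate 2 or WT MI replicate 2 or with quantile normalization. Folr2 was at 11.71 and 9.77 in WT sham and at 17.86 and 25.19 in WT MI (2.00-fold, 0.93 ± 0.22, adjusted p = 0.0133), and its call was lost without WT MI replicate 2 (adjusted p = 0.0904) or WT sham replicate 2 (0.0757). Lymphocyte markers stayed low. Of 5 tested T cell markers 1 rose, Il7r from 0.1 and 0.2 to 2.75 and 2.8, and of 3 tested B cell markers 1 rose, Cd79b, a call lost without WT sham replicate 2 or either WT MI library and with quantile normalization. None of the 8 MHC class II genes was called in either direction (median 0.03), but 2 were called higher without WT sham replicate 1, in which 7 of the 8 were above WT sham replicate 2 (median log2 difference 0.46). Cd74, their chaperone, was at 222.51 and 163.7 in WT sham and at 182.88 and 178.58 in WT MI.

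Genes of macrophages that take up dead cells and lipid rose in 17 of 20 cases and fell in 2. Arg1, which breaks down arginine in repair macrophages, was at 0.64 and 0.45 in WT sham and at 90.27 and 86.3 in WT MI (162-fold, 5.86 ± 0.12, adjusted p = 9.72e-07). Trem2, a lipid receptor, was at 2.36 and 1.84 against 25.1 and 34.21, the scavenger receptor Msr1 at 1.3 and 0.91 against 19.35 and 23.2, and Gpnmb, a glycoprotein of lipid-laden macrophages, at 1.07 and 0.69 against 13.62 and 36.39. The 2 that fell, Lpl and Cd36, are also abundant in cardiomyocytes, and Cd36 lost its call without any 1 of the 4 WT libraries. In the lysosome list 22 of 28 genes rose and 1 fell (median 1.21), Gaa, which breaks down glycogen and lost its call without any 1 WT library. Ctss, a protease of antigen-presenting cells, was at 21.84 and 16.48 in WT sham and at 180.38 and 203.4 in WT MI (10-fold, 3.27 ± 0.19, adjusted p = 3.64e-05), and Lgmn, another lysosomal protease, at 44.79 and 43.54 against 191.49 and 221.8 (4.68-fold, 2.20 ± 0.12).

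Chemokines, which draw these cells in, rose in 17 of 23 cases and fell in 1 (median 2.11). Ccl2, which attracts monocytes, was at 6.05 and 2.95 in WT sham and at 120.82 and 147.28 in WT MI (29.8-fold, 4.67 ± 0.24, adjusted p = 2.51e-05). Ccl7 was at 2.13 and 2.96 against 55.18 and 79.56, and Ccl6 at 17.31 and 14.58 against 200.22 and 198.41. Among attractants of neutrophils, Cxcl5 was listed in neither sham library and was at 12.9 and 16.05 in WT MI, and Cxcl1 was at 0.33 and 1.05 against 13.87 and 14.27. Cxcl5 and Cxcl1 passed the filter only with infarct libraries, so the count of chemokines was in part set by it. The chemokine that fell was Cxcl9, which attracts T cells, at 6.13 and 7.01 in WT sham and 2.98 and 4.31 in WT MI (-0.72 ± 0.19, adjusted p = 0.0189), a call lost without WT MI replicate 1 (adjusted p = 0.112) or WT sham replicate 2 (0.0925). Of 9 chemokine receptors 8 rose and 1 fell, the decoy receptor Ackr3 (log2 fold change -0.53), which lost its call without WT MI replicate 1 (adjusted p = 0.079) or WT sham replicate 1 (0.0598).

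Of 29 cytokines and cytokine receptors 21 rose and 1 fell (median 1.16). Il1b, the main early inflammatory cytokine, was at 0.96 and 1 in WT sham and at 8.65 and 9.47 in WT MI (9.24-fold, 2.34 ± 0.20, adjusted p = 0.000155). Il6 was listed in neither sham library and was at 5.08 and 5.94 in WT MI. It passed the filter only through infarct libraries, so the count of this list was in part set by the filter. Il33, an alarm signal of injured tissue, was at 0.99 and 1.17 against 9.14 and 19.4. On the receiving side, Osmr, which binds oncostatin M, rose 3.11-fold, Il4ra 7.52-fold, and Socs3, a feedback inhibitor of cytokine signalling, 5.75-fold. The transcription factor Stat3 rose 1.63-fold (0.69 ± 0.10, adjusted p = 0.00192). The gene that fell, Il11ra1, went from 25.12 and 25.75 to 20 and 19.94 (-0.33 ± 0.11, adjusted p = 0.0413) and lost its call with any 1 of the 6 libraries left out.

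Receptors that sense damage and microbes pass their signals on through adapters. Card9, the targeted gene of the series, is such an adapter and is counted with the CARD panel. Of 27 other receptors and adapters of this kind 23 rose and none fell (median 1.22). Clec4d, a lectin receptor of myeloid cells, was at 0.48 and 0 in WT sham and at 20.74 and 18.25 in WT MI (4.07 ± 0.28, adjusted p = 6.44e-05), and its relative Clec4n at 1.96 and 0.88 against 16.86 and 18.39. Clec4d passed the filter only through infarct libraries, so the count of this list was in part set by the filter. Fcer1g, the chain that couples these receptors to the kinase Syk, rose 8.03-fold (2.95 ± 0.16), Tyrobp, a second such adapter, 7.03-fold, and Syk itself 2.47-fold (1.22 ± 0.15, adjusted p = 0.000646). Card9, the adapter downstream of Syk, was at 0.99 and 1.03 in WT sham and at 3.39 and 5.08 in WT MI (4.19-fold, 1.36 ± 0.23, adjusted p = 0.00321). Of the 9 tested genes of the CARD panel Card9, Pycard and Ripk2 rose and none fell. This share of 33.3% is near the 27.7% of all tested genes that rose. Ripk2 lost its call without WT MI replicate 1 and with quantile normalization, and Pycard without WT MI replicate 2. Of 16 genes of NF-kB subunits and feedback 8 rose and none fell, among them Nfkbia, the inhibitor that NF-kB itself induces (2.42-fold), and Rela (1.58-fold).

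All 6 genes of the phagocyte NADPH oxidase rose (median 2.09), with Ncf1 6.08-fold, Rac2 6.67-fold and Cyba 3.52-fold. Of 17 adhesion genes 16 rose, among them Selp, which captures leukocytes on vessel walls, from 0.37 and 0 to 6.93 and 6.83, and the leukocyte integrin chain Itgb2 11.2-fold. Lcn2, a protein that withholds iron from bacteria, was at 1.9 and 3.17 in WT sham and at 268.76 and 203.93 in WT MI (93.2-fold, 6.08 ± 0.20, adjusted p = 5.21e-06). Its proposed receptor gene Slc22a17 was at 1.79 and 0.86 against 1.94 and 1.77 and was not called (adjusted p = 0.325). Hmox1, which degrades heme, was at 9.33 and 8.92 against 228.46 and 258.08 (26.7-fold, 4.59 ± 0.19, adjusted p = 1.08e-05), and Ftl1, an iron storage chain, at 382.24 and 286.17 against 1350.51 and 1664.17 (4.51-fold). The 6 erythroid genes listed summed to 1053.4 and 479.2 in the sham libraries and to 1786.4 and 2922.2 in the infarct libraries, and the part of red blood cells in the values of Hmox1 and Ftl1 was not tested.

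Interferon-stimulated genes rose in 8 of 26 cases and fell in none, a share near the 27.7% of all tested genes, with a median of 0.79. The count was 4 without WT sham replicate 2 and 2 without either WT MI library, and 1 gene fell under each other scaling. Ifitm3, which blocks entry of viruses, rose 2.37-fold (1.24 ± 0.12, adjusted p = 0.000241).

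**Figure D3:**
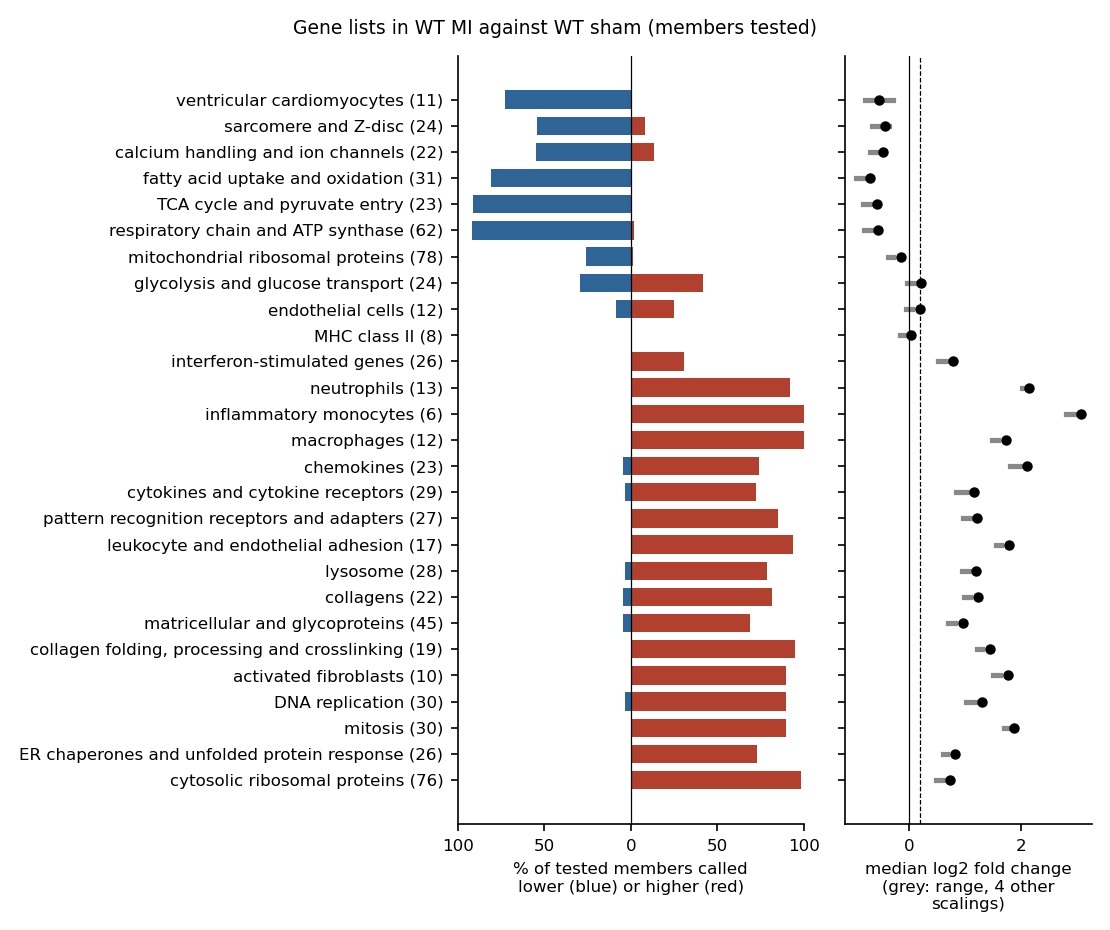
Left, share of the tested members (number in parentheses) of 27 gene lists called lower (blue) or higher (red) in WT MI against WT sham, in %, and right, the median log2 fold change of each list (black) with its range under 4 other scalings (grey) and the median of all genes (dashed, 0.19). The list of the respiratory chain has 91.9% of its members lower, and those of neutrophils, collagens and mitosis have 92.3%, 81.8% and 90% higher, while the medians of endothelial cells, glycolysis and MHC class II change sign with the scaling. Members near 0 in sham, as in the lists of neutrophils, inflammatory monocytes, chemokines, cytokines and pattern recognition receptors, were tested only through infarct libraries.

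Several of the largest gains were found for matrix genes. Spp1, or osteopontin, a secreted protein of macrophages and wound tissue, had the largest log2 fold change of all genes. It was at 5.6 and 3.27 in WT sham and at 434.34 and 675.76 in WT MI (125-fold, 6.68 ± 0.28, adjusted p = 1.22e-05). Of 22 tested collagens 18 rose and 1 fell (median 1.23), and the list went from 0.109% and 0.0998% of all FPKM to 0.378% and 0.455%. Col1a1, the main chain of scar collagen, was at 45.4 and 41.05 against 359.07 and 515.63 (10.1-fold, 3.29 ± 0.16, adjusted p = 2.35e-05), and Col3a1 at 48.16 and 44.72 against 375.38 and 489.38 (9.31-fold). Col4a1, a chain of basement membrane collagen, rose 1.88-fold (0.91 ± 0.12). The collagen that fell, Col4a4, was at 2.08 and 1.42 against 0.53 and 0.39 and lost its call without WT sham replicate 1 (adjusted p = 0.117) or either WT MI library (0.0676 and 0.0934).

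Of 45 further matrix proteins 31 rose and 2 fell (median 0.97). Fibronectin (Fn1), which forms the first scaffold, was at 11.96 and 13.18 in WT sham and at 149.18 and 165.35 in WT MI (12.5-fold, 3.54 ± 0.13, adjusted p = 7.35e-06). Tenascin C (Tnc), found in healing tissue, was at 1.14 and 0.87 against 67.36 and 66.83 (66.8-fold, 5.09 ± 0.12, adjusted p = 9.85e-07), and periostin (Postn), a marker of activated fibroblasts, at 24.64 and 16.85 against 183.74 and 240.89 (10.2-fold). The genes that fell were Fbln1 (64.4%) and Sparcl1 (80.5%). Fbln1 lost its call without WT MI replicate 1 (adjusted p = 0.108) or WT sham replicate 2 (0.096), and Sparcl1 without any 1 WT library, while 5 or 6 genes of this list fell under the other scalings.

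The machinery that folds and crosslinks collagen rose almost as a whole, 18 of 19 genes and none lower (median 1.44). Lox, the enzyme that starts the crosslinks, was at 1.83 and 2.09 in WT sham and at 59.98 and 58.74 in WT MI (30.3-fold, 4.35 ± 0.12, adjusted p = 1.98e-06). Serpinh1, the collagen chaperone, rose 2.65-fold, P4hb, a subunit of prolyl hydroxylase, 2.80-fold, and Pcolce, which speeds trimming of procollagen, 2.57-fold. The membrane protease Mmp14 rose 5.19-fold (2.27 ± 0.16, adjusted p = 7.34e-05), Mmp3 7.45-fold and Mmp12, the macrophage elastase, from 0.26 and 0.18 to 9.93 and 13.29. Mmp9, a gelatinase of neutrophils and macrophages, was at 0.69 and 0.51 against 24.91 and 10.15 (29.2-fold, 3.41 ± 0.35). Mmp2, the gelatinase of fibroblasts, was at 24.88 and 26.38 against 27.22 and 34.74 and was not called (0.25 ± 0.13, adjusted p = 0.166). Among their inhibitors, Timp1 was at 5.36 and 5.24 in WT sham and at 299.16 and 253.84 in WT MI (52.2-fold, 5.46 ± 0.13, adjusted p = 9.85e-07), while Timp4, the form of heart muscle, fell to 40.2% (-1.11 ± 0.19, adjusted p = 0.00352).

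**Figure D4:**
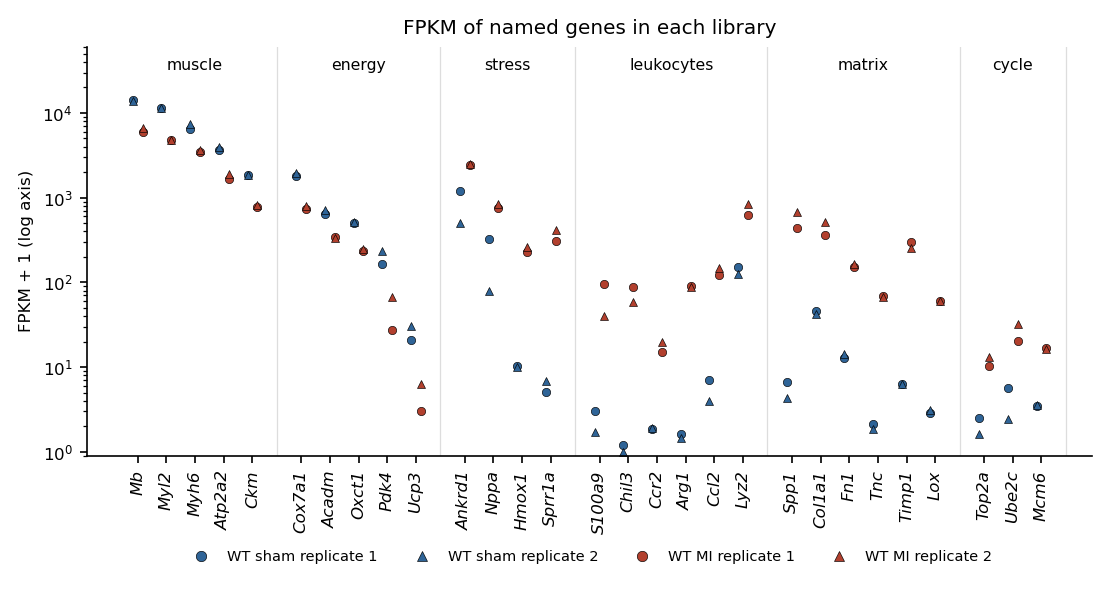
FPKM + 1 (log axis) of 29 named genes in each of the 4 WT libraries, with sham in blue and infarct in red, circles for replicate 1 and triangles for replicate 2. In every gene shown the infarct libraries lie outside the range of the sham libraries, and the sham libraries of Nppa lie furthest apart among the stress genes (325.62 and 78.2). Of all 13120 tested genes, 6334 were higher and 2897 lower without overlap.

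Of 11 fibroblast markers 7 rose and 1 fell (median 0.93), and of 10 markers of activated fibroblasts 9 rose (median 1.77), among them Acta2, the actin of myofibroblasts and smooth muscle, from 34.75 and 54.23 to 117.28 and 97.16 (2.41-fold, 1.28 ± 0.19). Gsn, a protein that severs actin filaments, was the fibroblast marker that fell (61.7%). Endothelial markers could not be given a direction. Of 12 genes 3 rose and 1 fell, but 0 rose and 4 fell with upper-quartile, quantile and median-ratio scaling, and the gains numbered 0 without WT sham replicate 2 or WT MI replicate 1. The marker that fell was Kdr, the main receptor for VEGF, at 62.26 and 58.86 in WT sham and at 34.37 and 40.59 in WT MI (61.9%, -0.68 ± 0.11, adjusted p = 0.00277). The gene of its ligand, Vegfa, fell too (61.7%, -0.69 ± 0.13, adjusted p = 0.00529), as did its family member Vegfb (57.6%), whereas the related Pgf rose from 3.03 and 2.63 to 23.1 and 20.31 (7.67-fold). Of 33 growth factor genes 19 rose and 3 fell, the latter being Vegfa, Vegfb and Fgf13, which lost its call without any 1 WT library, and 5 fell with upper-quartile or median-ratio scaling. Among the gains were Tgfb1, which drives fibroblasts to make matrix (2.59-fold, 1.34 ± 0.13), and Gdf15, a stress hormone, from 7.11 and 1.86 to 28.74 and 40.52. Aldh1a2, which makes retinoic acid in activated epicardium, was at 3.35 and 2.76 against 52.98 and 42.49 (15.6-fold, 3.58 ± 0.14, adjusted p = 1.08e-05).

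Cell cycle genes rose together. Of 30 genes of mitosis 27 rose and none fell (median 1.88), and their FPKM summed to 45.86 and 33.91 in the sham libraries and to 187.32 and 229.55 in the infarct libraries, and of 30 genes of DNA replication 27 rose and 1 fell (median 1.30). Ube2c, which marks mitotic proteins for destruction, was at 4.62 and 1.43 in WT sham and at 19.57 and 31.66 in WT MI (8.47-fold, 2.81 ± 0.37, adjusted p = 0.00102). Top2a, which untangles chromosomes, was at 1.5 and 0.63 against 9.42 and 12.29 (10.2-fold, 2.54 ± 0.24), and Prc1, which bundles the spindle midzone, at 2 and 0.34 against 10.76 and 9.68 (8.73-fold, 2.48 ± 0.34). Top2a and Prc1 were below an FPKM of 1 in WT sham replicate 2 and passed the filter only with infarct libraries. The count of mitosis genes was thus in part set by the filter, and the absence of losses is no support of its own. Mcm6, part of the replicative helicase, was at 2.49 and 2.6 against 15.85 and 15.52 (6.16-fold, 2.23 ± 0.14, adjusted p = 4.51e-05). The replication gene that fell was the transcription factor E2f1, at 20.75 and 29.7 against 11.68 and 13.27 (49.5%, -0.94 ± 0.18, adjusted p = 0.00539). Among regulators, Myc rose 5.24-fold (2.15 ± 0.16) while its relative Mycn fell to 28.1% and the inhibitor Cdkn1c to 35.2% (-1.35 ± 0.14, adjusted p = 0.000337).

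The promoters of these mitosis genes share short motifs, and 3 are shown because they hold both kinds. The letters searched were CCAAT on either strand (CCAAT or ATTGG), known as the CCAAT box, and TTTGAA on either strand (TTTGAA or TTCAAA), the core of an element of late cell cycle genes. In the RefSeq promoters of GRCm38.p6, 250 bases before to 50 after a start, 26 promoters of 24 of the 30 mitosis genes were found. The CCAAT box was in 21 of them (80.8%) beside 37.4% of all 32851 promoters, TTTGAA in 20 (76.9%) beside 17.9%, and both in 18 (69.2%) beside 6.95%. In the 30 promoters of DNA replication genes both motifs were in 6.67% and the CCAAT box in 53.3%. Other motifs were searched as well. TATAAA or TTTATA was in 13.8% of the promoters of sarcomere and Z-disc genes beside 13.6% of all promoters. An NF-kB site was in 7.69% of the promoters of the 15 largest gains beside 5.89% of all promoters. A match of letters is no proof of a binding site. Below are the 150 bases before the start, with matches in capitals, of Ube2c (chr2:164769779-164769928, plus strand), Top2a (chr11:99024190-99024339, minus strand) and Prc1 (chr7:80294326-80294475, plus strand).
Ube2c: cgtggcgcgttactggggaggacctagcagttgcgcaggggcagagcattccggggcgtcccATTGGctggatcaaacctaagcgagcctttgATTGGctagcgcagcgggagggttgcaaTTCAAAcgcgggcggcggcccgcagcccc
Top2a: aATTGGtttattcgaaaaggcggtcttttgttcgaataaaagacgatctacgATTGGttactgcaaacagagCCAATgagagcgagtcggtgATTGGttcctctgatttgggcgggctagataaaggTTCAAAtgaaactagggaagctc
Prc1: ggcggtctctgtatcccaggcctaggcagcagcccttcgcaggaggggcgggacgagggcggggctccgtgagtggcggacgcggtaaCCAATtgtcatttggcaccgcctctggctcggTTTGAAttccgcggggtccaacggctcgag
The TTTGAA element began 29, 23 and 30 bases before the start in these promoters.

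Genes for making proteins rose in the same tissue. Of 76 genes of cytosolic ribosomal proteins 75 rose and none fell (median 0.73), and 61 of the gains held under every scaling. The list took 4.05% and 3.96% of all FPKM in the sham libraries and 6.83% and 6.77% in the infarct libraries. Rps26 was at 551.48 and 539.66 against 1120.52 and 1157.01 (2.09-fold, 1.06 ± 0.09, adjusted p = 0.000154), and the elongation factor Eef1a1 at 475.5 and 447.42 against 1478.18 and 1531.7 (3.26-fold, 1.70 ± 0.12). Ribosomal protein genes have many pseudogenes that can share reads. Of 78 genes of mitochondrial ribosomal proteins 1 rose and 20 fell (median -0.15). The losses numbered from 9 to 12 without 1 WT library, but 39 with upper-quartile scaling, 35 with median-ratio scaling and 30 with quantile normalization. Of 26 genes of endoplasmic reticulum chaperones and the unfolded protein response 19 rose and none fell (median 0.82), among them Calr, a calcium-binding chaperone (2.07-fold), and Pdia4, which forms disulphide bonds (3.65-fold). With other scalings 2 or 3 genes of this list fell.

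**Figure D5:**
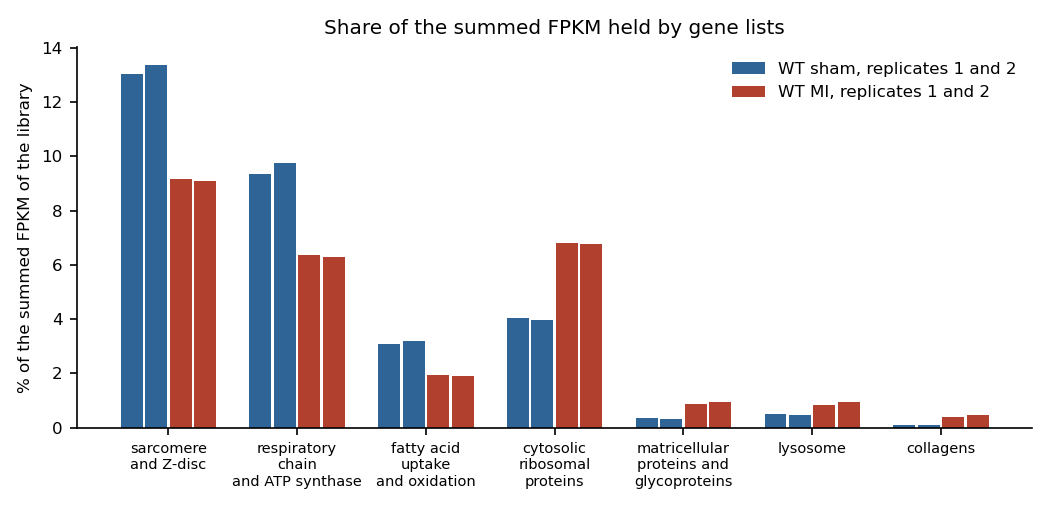
Share of the summed FPKM of each library (vertical axis, %) held by 7 gene lists, with the replicates of WT sham in blue and of WT MI in red. Cytosolic ribosomal proteins go from 4.05% and 3.96% in the sham libraries to 6.83% and 6.77% in the infarct libraries and the respiratory chain from 9.35% and 9.78% to 6.37% and 6.30%.

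Among the gains not yet named, Sprr1a, a small crosslinked protein induced in stressed cardiomyocytes, was at 4.03 and 5.88 in WT sham and at 305.91 and 413.09 in WT MI (72.6-fold, 5.92 ± 0.18, adjusted p = 3.95e-06). Lgals3, or galectin-3, a lectin of macrophages, was at 3.24 and 2.17 against 91.58 and 130.49 (41.0-fold, 4.91 ± 0.22), and the protease gene Adam8 at 0.41 and 0.65 against 38.97 and 40.91. Of the called genes 64 were listed in neither sham library, led in WT MI by H2ac24 (80.55 and 98.82), AA467197 (21.71 and 20.03), Apoc2 (15.4 and 19.4), Cxcl5 and Btg3 (11.57 and 11.9). H2ac24 is a histone gene with near-identical copies that can share reads, so its level is uncertain. Beta-actin (Actb), often used to scale qPCR, rose from 340.05 and 302.15 to 1206.1 and 1283 (3.88-fold, 1.95 ± 0.12, adjusted p = 4.7e-05), and Gapdh, the reference of the study's qPCR, was at 5455.78 and 4979.08 against 5127.19 and 5031.76 (-0.04 ± 0.10, adjusted p = 0.8). Gapdh was called higher with quantile normalization (log2 fold change 0.64).

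The largest losses by log2 fold change include short RNAs, and they rest on few fragments. Of the 15 largest losses 5 were genes of at most 200 bases with a position in mm9. Mir208b, the microRNA hairpin in an intron of Myh7 on the same strand (mm9 chromosome 14, 55594537 to 55594613, minus strand), was at 37.88 and 23.71 in WT sham and at 0 and 6.09 in WT MI (-3.54 ± 1.03, adjusted p = 0.0305). On its 77 bases these values correspond to about 9.24 and 5.51 fragments against 0 and 1.84, and the call was lost without either sham library or WT MI replicate 1. Mir1902, within an exon of Hipk3 (mm9 chromosome 2, 104269018 to 104269097, minus strand), had about 7.04 and 5.65 fragments against 1.26 and 0, and Mir568, within an exon of Zbtb20 (mm9 chromosome 16, 43640768 to 43640850, plus strand), 15.6 and 15.5 against 10.3 and 1.73. Mir568 lost its call without either sham library. Snord82 had about 2.15 and 2.14 fragments against 0 and 0. Mir5046 was at 19.4 and 8.58 and at 0 in both WT MI libraries. The libraries were made from fragmented mRNA, so these values count fragments within the hairpins and not mature microRNA. The mature sequences of RefSeq (GRCm38.p6) are given, with the seed (bases 2 to 8) in capitals, to identify these hairpins, and no seed is shared.
miR-208b-3p: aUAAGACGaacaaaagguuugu
miR-208b-5p: aAGCUUUUugcucgcguuaugu
miR-1902: aGAGGUGCaguaggcaugacuu
miR-568: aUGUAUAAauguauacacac
miR-5046: aGCUCCCGccacugugacccccuu
Among longer genes, Lrtm1 was at 110.78 and 113.24 in WT sham and at 24.12 and 33.82 in WT MI (25.9%, -1.93 ± 0.16, adjusted p = 0.00014), Mylk4, a myosin light chain kinase of muscle, at 43.86 and 52.53 against 6.87 and 13.25 (20.9%), and the carboxylesterase gene Ces1d at 40.24 and 56.75 against 11.58 and 12.68 (25%). Of the called genes 5 were listed in no infarct library, among them Prss55 (1.27 and 3.31 in WT sham) and Gm3696 (2.62 and 2.6).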

How the data were processed

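RNA-seq was done on below-ligature heart tissue of mice by the submitters. Per the labels, total RNA was extracted with TRIzol, mRNA was enriched with oligo(dT) beads and libraries were made with a TruSeq kit. Per the study's methods, they were sequenced on an Illumina HiSeq instrument. The submitters' processing notes name the mm9 build, BWA and Bowtie2. Versions, the annotation, the counting step and the use of strand are not given in the sources used here. The deposited values are FPKM per gene number, with 2 decimals, made by the authors, 1 table per library.

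The 6 tables were joined by gene number with 0 for an unlisted gene (17441 genes, 17390 with a symbol). A gene was tested if 2 or more of the libraries had it at an FPKM of 1 or higher, and the test was done with limma 3.58.1 (R 4.3.3, lmFit and eBayes with trend) on log2(FPKM + 1), with 3 group means (3 residual degrees of freedom), the contrast WT MI minus WT sham, Benjamini-Hochberg adjustment and a threshold of 0.05. The group WT sham and the group WT MI came from the labels. Whole reads could not be recovered, since between 64.2% and 69.5% of low values lay within 0.1 of a whole number of fragments, so no count test was run. With 2 libraries against 2 an exact permutation test cannot pass the threshold, and none was run. The fit was tested on simulated data. Tables were handled with Python 3.11.15, numpy 2.4.6, pandas 2.3.3 and matplotlib 3.10.9.

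Alternatives were the pseudocount (0.1 or 5), the filter (none, a mean of at least 5, or genes listed in all libraries), 4 scalings, the 4 WT libraries alone, no trend, a replicate block, a fold threshold and leaving out each library. The comparison and the gene lists were chosen with earlier results of these data known. Genes named by rule are the 3 most abundant of each list and up to 3 that moved against its majority, the 15 largest gains and losses without overlap, the 10 largest FPKM differences each way, up to 5 genes listed in no library of a group, the CARD panel and the largest replicate differences. Some genes that meet this rule are not reported here. Other named genes were chosen after their values were seen.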

Additional observations from a re-analysis of the deposited data

How the results depend on the processing

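Against 3637 gains and 1232 losses, quantile normalization gave 2287 and 2414, upper-quartile scaling 2351 losses and median-ratio scaling 2146 losses, and a log2 fold change of at least 1 left 1529 gains and 178 losses. Leaving out 1 library gave from 2256 to 3487 gains and from 627 to 1193 losses, the fewest of both without WT MI replicate 1. Replicate numbers did not pair the samples (correlations of deviations 0.002, -0.008 and 0.020), and the replicate block gave 3503 gains and 1148 losses. Of the 129 gains and 89 losses under the naming rule, 104 kept their call under every alternative, 37 lost it under at least 1 other scaling, 68 without 1 library, 9 under the block and 99 with the fold threshold. Reversals were found for Actc1 (log2 fold change 0.49) and Gapdh (0.64) with quantile normalization and for Acta1, which gave 0.72 without WT sham replicate 1 and -1.32 without WT sham replicate 2, and the cause was not tested. Of 132 list counts, 36 moved by over 1.5 times under another scaling, 50 without 1 library and 5 under the block. The dendritic, T and B cell medians could not be computed with the stricter filter, which left none of their genes. At about 3016207 to 4012843 fragments per WT library, values under an FPKM of about 0.5 rest on few fragments.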

Other observations

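Genes of the circadian clock moved both ways, 7 of 18 higher and 5 lower (median log2 fold change -0.02), and the counts were 4 higher without WT MI replicate 2 and 3 lower without WT sham replicate 2 or either WT MI library and 8 lower with quantile normalization. Arntl, the core activator of the clock, was at 12.6 and 15.84 in WT sham and at 4.13 and 3.03 in WT MI (25.2%, -1.73 ± 0.17, limma adjusted p = 0.000315), and its partner Npas2 fell to 33.8%. Dbp, an output gene, was at 7.95 and 10.85 against 24.26 and 33.92 (3.09-fold, 1.53 ± 0.21), and Per1 at 6.91 and 13.63 against 27.56 and 24.86. The hour of sampling is not given in the labels, and its part in these values was not tested. Among immediate early genes, Egr1 was at 87.07 and 60.3 in WT sham and at 29.6 and 40.97 in WT MI (-1.04 ± 0.20, adjusted p = 0.00554), whereas Fosl1 was at 0.56 and 0.58 against 6.99 and 6.14 and Ier3, a stress survival gene, at 16.8 and 14.76 against 79.28 and 57.12.

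Genes of clotting and its dissolution rose in 10 of 13 cases and fell in 2, Tfpi and F3, both of which lost their call without WT sham replicate 2 or WT MI replicate 1, Tfpi also without WT MI replicate 2 and F3 without WT sham replicate 1. Pf4, a platelet and megakaryocyte chemokine also found in macrophages, was at 10.19 and 13.43 in WT sham and at 102.78 and 113.47 in WT MI. Of 15 S100 and annexin genes 13 rose, such as S100a4 (19.1-fold) and Anxa2 (6.58-fold), and the cardiac calcium sensor S100a1 fell to 63.1%. Metallothionein Mt2 was at 38.83 and 16.82 against 239.63 and 252.68 (8.85-fold, 3.21 ± 0.32), while Prdx3, a peroxidase of mitochondria, fell to 61.1%. Of 12 genes often used as qPCR references 6 rose and none fell, but 5 rose and 2 fell with upper-quartile scaling. The gains that held under every scaling include those of Ppia (2.47-fold), Rpl13a (2.13-fold) and Hprt (1.62-fold).

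Replicates of the infarct group differed in some gene lists and not in others, and the share over all genes is not given here. Replicate 1 was the higher one for 11 of 13 neutrophil markers (median log2 difference 0.72) and for 5 of 26 interferon-stimulated genes (-0.32), 5 of 23 chemokines (-0.33), 2 of 11 fibroblast markers (-0.38) and 1 of 28 lysosome genes (-0.17). The same replicate was higher for 4 of 4 adipocyte markers (1.25) and 0 of 4 erythroid markers (-0.91). For inflammatory monocytes the count was 3 of 6 and for activated fibroblasts 5 of 10.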
